A study of Mus musculus with 8 samples.

Results

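The 9 genes described here, F3, F7, F10, F13a1, Thbd, Procr, Plau, Plaur and Serpinb2, encode proteins that start, limit or dissolve a fibrin clot. They were picked by symbol from the 55359 genes listed in the deposited table, with earlier results of these data known and with no stated threshold, so that their values below are a description and the p-values given beside them are no independent support. All 9 were found, and all 9 passed the filter on low values that left 16309 genes for testing.

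Total RNA was sequenced from bone marrow-derived Mϕ (BMDMs) of adult male and female C57BL/6 wild-type mice, which had been differentiated with 20 ng/mL M-CSF and 20 ng/mL GM-CSF over 7 days per the labels. The 4 groups held 2 samples each. Ctrl BMDMs were naïve and unstimulated, LPS BMDMs were naïve and received LPS at 100 ng/mL together with IFNγ at 100 U/mL for 6 h, Eff BMDMs had taken part in a co-culture of 16 h with apoptotic NIH-3T3 CA fibroblasts, and LPSEff BMDMs received that co-culture and then, after washing, LPS/IFNγ for 6 h. The fibroblasts, 1 clone of a mouse embryonic line, carry an inducible human caspase-8 domain and die when 10 nM of a dimerizer joins its copies. They were added at 5 per Mϕ, and the dimerizer stayed in the co-culture. The labels do not say whether Ctrl and LPS samples also received the dimerizer. CD45+ cells were enriched with magnetic beads before lysis. Dying fibroblasts inside a Mϕ pass such a selection together with it, so that their RNA cannot be told apart from that of the Mϕ by the sort alone.

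Blood clotting is started by tissue factor (F3), a membrane receptor that binds factor VII (F7). The pair activates factor X (F10), which makes thrombin, and thrombin turns fibrinogen into fibrin that factor XIII (its A subunit is F13a1) crosslinks. Thrombomodulin (Thbd) captures thrombin on the cell surface and, with the endothelial protein C receptor (Procr), redirects it to activate the anticoagulant protein C. Fibrin is removed by plasmin, which urokinase (Plau) releases from plasminogen while bound to its receptor (Plaur), and plasminogen activator inhibitor type 2 (Serpinb2) blocks urokinase. Monocytes and Mϕ are a known source of tissue factor, urokinase and Serpinb2 at sites of inflammation.

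The genes lie at separate places in the genome (GRCm39, GENCODE annotation) apart from F7 (chr8:13076002-13085809) and F10 (chr8:13087293-13106676), which follow each other on the same strand with 1483 bases between them. F3 was at chr3:121516610-121528820, F13a1 at chr13:37051152-37234277, Thbd at chr2:148216045-148250201, Procr at chr2:155593031-155597397, Plau at chr14:20886722-20893453, Plaur at chr7:24161875-24175394 and Serpinb2 at chr1:107428593-107463208. Serpinb2 shared 275 exonic bases with Serpinb10 on the same strand, which had a mean of 14.6 normalized counts over the 8 samples. F3, F13a1, Plau and Serpinb2 shared exonic bases with non-coding genes on the opposite strand, and htseq-count in its default mode, which the methods name, assigns reads by strand.

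Promoter sequences from RefSeq (GRCm38.p6) were found for 7 of the 9 genes, those other than Thbd and Plau. In the 250 bases before an annotated start, the letters TGANTCA, which the AP-1 family of transcription factors is known to bind and which read alike on both strands, occurred in 4 of these 7 genes, compared with 6.75% of 32851 promoters of the same length. The 4 genes were F3 (at -146 and -135 from the start), Procr (-154), Plaur (-69) and Serpinb2 (-94). A gene counted when any of its annotated starts held the letters (2 starts for F13a1 and Serpinb2), whereas the 6.75% counts single promoters. The stretches of the 4 genes are shown on the plus strand, 5′ to 3′, with the AP-1 letters in capitals. In Serpinb2 alone, the TATA box TATAAA (-29) is in capitals too. F3, Procr and Serpinb2 rose with LPS/IFNγ, but the genes were chosen with that response known, so that nothing is read from this. The coordinates are chr3:121723385-121723414 for F3, chr2:155750967-155751110 for Procr, chr7:24462233-24462449 for Plaur and chr1:107511173-107511411 for Serpinb2.
F3: cgctgtTGAATCAcggtTGAGTCAcccctt
Procr: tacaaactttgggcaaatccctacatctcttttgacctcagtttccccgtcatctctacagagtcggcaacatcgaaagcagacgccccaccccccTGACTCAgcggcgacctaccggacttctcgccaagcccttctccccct
Plaur: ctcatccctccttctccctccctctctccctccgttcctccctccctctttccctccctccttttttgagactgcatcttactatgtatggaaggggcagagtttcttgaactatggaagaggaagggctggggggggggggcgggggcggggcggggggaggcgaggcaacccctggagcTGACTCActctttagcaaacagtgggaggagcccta
Serpinb2: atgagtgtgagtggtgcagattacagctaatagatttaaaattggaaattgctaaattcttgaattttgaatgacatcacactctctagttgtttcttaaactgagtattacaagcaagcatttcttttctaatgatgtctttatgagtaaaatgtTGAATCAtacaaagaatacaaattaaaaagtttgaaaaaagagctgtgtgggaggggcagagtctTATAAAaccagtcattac
F3 carried the letters in a pair separated by 4 bases. Matched to GRCm39, the F3 stretch lies within annotated exons, and the stretches of the other 3 genes end before the first exonic base of their window. In all, 8 motifs were searched on both strands. The NF-kB motif and the interferon-stimulated response element were in 0 of the 7 genes (7.25% and 2.98% of all promoters), which says only that these letters are not in these windows. The interferon-gamma activated site was in 1 (Serpinb2, before its second annotated start; 7.02%), TATAAA in 1 (12.4%), the GC box GGGCGG in 2 (32.7%), the ETS letters GAGGAA in 3 (23.3%) and the KLF letters CACCC in 5 (52.0%). F10 rose with LPS/IFNγ as well and held neither the AP-1 letters nor a TATA box. The letters are a description of sequence, and binding was not measured.

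In naïve Mϕ, LPS/IFNγ raised F3, F10, Procr and Serpinb2 and lowered Thbd, so that 5 of the 9 genes were called (LPS vs Ctrl; limma, adjusted p under 0.05), beside 24.0% of all genes tested (12.4% higher, 11.6% lower). In efferocytic Mϕ the same stimulus raised F3, F10, Procr and Serpinb2 and limma called no member lower (LPSEff vs Eff; 4 of 9 called, beside 19.7% of all genes, 10.7% higher), while DESeq2 called Plau lower. Efferocytosis alone gave no call among the members (Eff vs Ctrl; limma, 0 of 9, with 3 at an unadjusted p under 0.05, 0 called by edgeR and 1, Procr, by DESeq2), beside 0.251% of all genes. Under LPS/IFNγ, efferocytic Mϕ held more Thbd than naïve Mϕ (LPSEff vs LPS; limma and edgeR, 1 of 9, beside 0.773% of all genes in limma, 0.73% higher), and DESeq2 called Procr as well. The median log2 change over the members was 0.73, 0.52, 0.73 and 0.52 in these 4 comparisons, in the order given, and between -0.01 and 0.01 over all genes tested. The samples of both groups did not overlap in 9 of 9 members in LPS vs Ctrl (5 higher, 4 lower, beside 59.3% of all genes without overlap), in 7 in LPSEff vs Eff (59.9%), in 4 in Eff vs Ctrl (34.1%) and in 6 in LPSEff vs LPS (36.3%). Since the members were chosen with these comparisons known, nothing is read from their counts, and since each group enters a pair of comparisons, the comparisons are not independent of each other. The values of each gene in each sample are plotted first, followed by the differences.

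**Figure D1:**
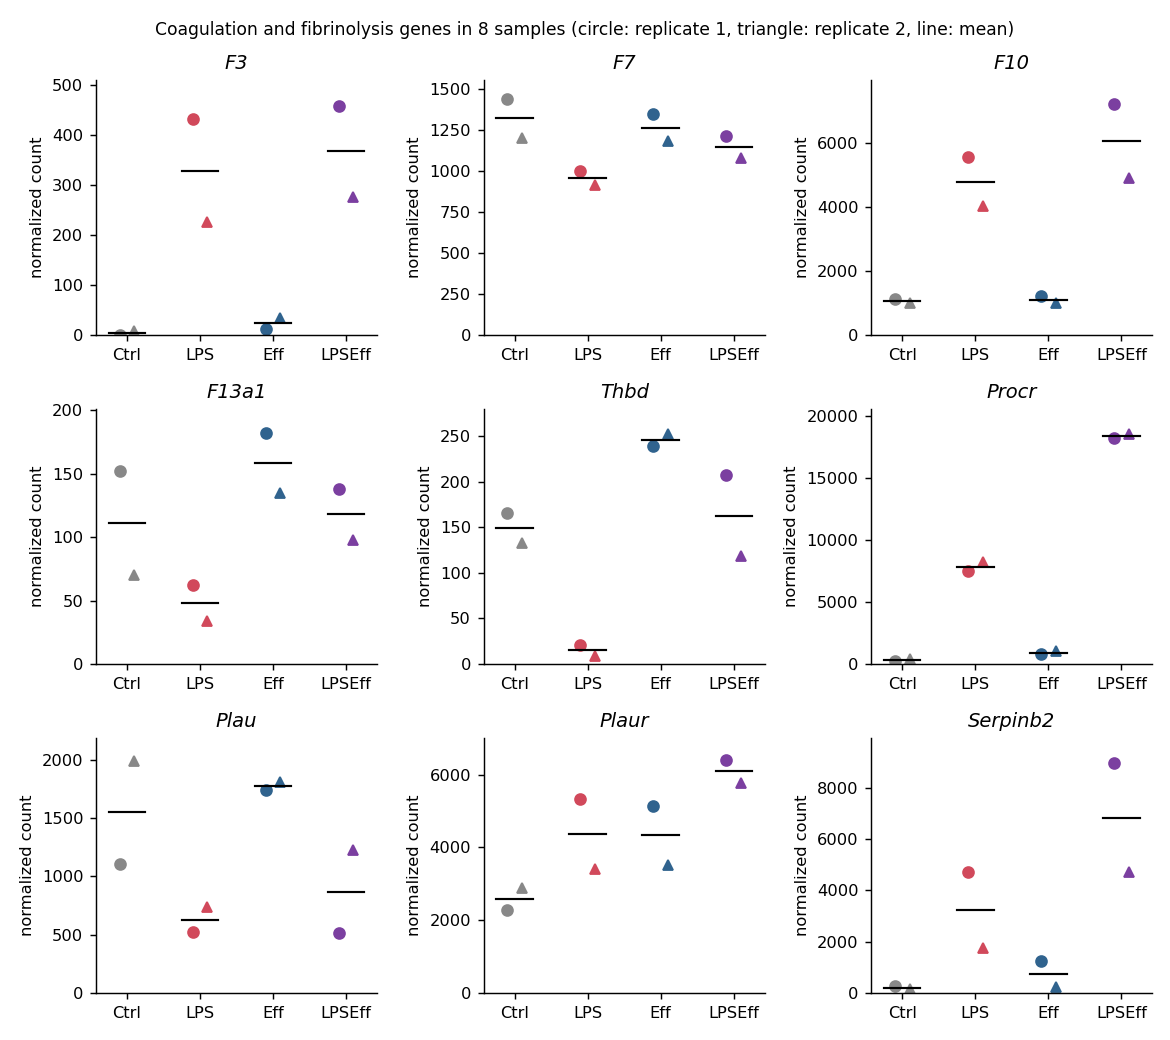
Normalized counts (vertical axes, starting at 0) of the 9 genes in the Ctrl, LPS, Eff and LPSEff groups (horizontal axes), with a circle for replicate 1, a triangle for replicate 2 and a line for the mean of both. Procr rose in 2 steps, from 244 and 409 in Ctrl to 18269 and 18530 in LPSEff, whereas Thbd was low in LPS alone, at 20.7 and 9.14.

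**Figure D2:**
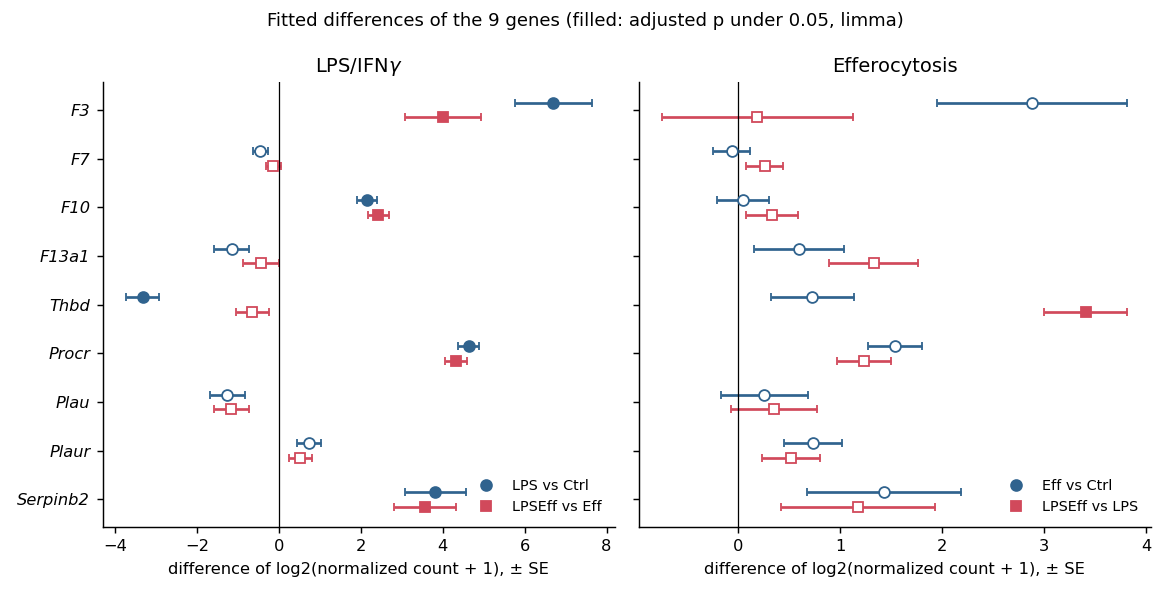
Differences of log2(normalized count + 1) between groups (horizontal axes) for the 9 genes (vertical axes), with bars for 1 standard error from limma, for the LPS/IFNγ effect in naïve and efferocytic Mϕ on the left and the efferocytosis effect in unstimulated and stimulated Mϕ on the right. The LPS/IFNγ effect on F3, F10, Procr and Serpinb2 lay above 2 in both kinds of Mϕ, and the effects on Thbd were -3.33 in naïve and -0.65 in efferocytic Mϕ.

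The initiating receptor F3 had few counts in unstimulated Mϕ and rose after LPS/IFNγ. It had 0 and 8.10 normalized counts in Ctrl (0 and 14 reads), 432 and 226 in LPS, 13.1 and 33.9 in Eff (15 and 48 reads), with 459 and 277 in LPSEff. Both stimulated groups lay above both unstimulated groups in every sample, Eff lay above Ctrl, and LPSEff and LPS overlapped. The log2 change with LPS/IFNγ was 6.70 ± 0.93 (SE, n = 2 per group; limma, adjusted p = 0.00173) in naïve and 4.01 ± 0.93 (adjusted p = 0.0191) in efferocytic Mϕ. The first value was 7.24 with a pseudocount of 0.5 and 5.30 with one of 5, and it was 5.11 without Ctrl replicate 1 and 8.29 without Ctrl replicate 2. The second was 3.36 without Eff replicate 1 and 4.66 without Eff replicate 2. The call in efferocytic Mϕ was lost without Eff replicate 1 (adjusted p = 0.110), LPSEff replicate 1 (0.108) or LPSEff replicate 2 (0.0560). Between unstimulated groups, F3 differed by 2.88 ± 0.93 on the log2 scale and did not pass (limma, adjusted p = 0.526), and between stimulated groups it differed by 0.19 ± 0.93 (0.980).

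F7 and F10, neighbours on chromosome 8 that encode the protease bound by tissue factor and the protease it activates, behaved differently. F7 had 1441 and 1200 normalized counts in Ctrl, 1001 and 912 in LPS, 1345 and 1181 in Eff, with 1214 and 1080 in LPSEff. LPS lay below all other groups, and no F7 comparison passed in limma with the 4 group means (log2 changes from -0.46 ± 0.18, adjusted p = 0.108, in LPS vs Ctrl to 0.26 ± 0.18, adjusted p = 0.717, in LPSEff vs LPS). With the samples rescaled to equal totals, which brought the median log2 change of all genes to -0.40, limma called F7 lower in LPS vs Ctrl (-0.86, adjusted p = 0.0122). F10 had 1133 and 1009 normalized counts in Ctrl, 5558 and 4035 in LPS, 1223 and 996 in Eff, with 7215 and 4906 in LPSEff. The stimulated samples held 4.48 times the mean of the unstimulated ones in naïve and 5.46 times in efferocytic Mϕ (log2 changes of 2.15 ± 0.25, adjusted p = 0.000811, and 2.43 ± 0.25, adjusted p = 0.000461, limma). These calls held when any sample was left out. Efferocytosis left F10 with overlapping groups in both contexts, with log2 differences of 0.05 ± 0.25 (adjusted p = 0.999) and 0.33 ± 0.25 (adjusted p = 0.757). Within a sample, the ratio of F10 to F7 normalized counts was 0.786 and 0.841 in Ctrl and 0.909 and 0.844 in Eff. It was 5.55 and 4.42 in LPS, with 5.94 and 4.54 in LPSEff, so that the separation of the 2 genes did not rest on how the samples were scaled.

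F13a1, the fibrin-crosslinking enzyme subunit, was low and did not pass in any comparison in limma with the 4 group means, in edgeR or in DESeq2. It had 152 and 70.0 normalized counts in Ctrl, 62.1 and 33.5 in LPS, 182 and 135 in Eff, with 138 and 97.7 in LPSEff. LPS lay below all other groups without overlap, while Ctrl overlapped with both Eff and LPSEff. The log2 difference was -1.16 ± 0.44 in LPS vs Ctrl (limma, adjusted p = 0.0952) and 1.33 ± 0.44 in LPSEff vs LPS (adjusted p = 0.315). Rescaled to equal totals, it was called lower in LPS vs Ctrl (limma, -1.56, adjusted p = 0.0373).

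Thbd, the thrombin receptor that turns thrombin towards protein C, was the only member that limma with the 4 group means called lower with LPS/IFNγ, and it was called in naïve Mϕ. It had 166 and 132 normalized counts in Ctrl, 20.7 and 9.14 in LPS (16 and 9 reads), 239 and 252 in Eff, with 207 and 118 in LPSEff. The LPS samples lay far below all others, Eff lay above all others, and LPSEff and Ctrl overlapped. The LPS mean was 0.100 times the Ctrl mean (log2 change -3.33 ± 0.41, limma, adjusted p = 0.000965), and this call held when any sample was left out. In efferocytic Mϕ the change was -0.65 ± 0.41 (adjusted p = 0.321). Under LPS/IFNγ, efferocytic Mϕ held 10.9 times as much Thbd as naïve Mϕ (3.41 ± 0.41, adjusted p = 0.0174), a call that was lost without LPS replicate 2 (0.0572), LPSEff replicate 1 (0.151) or LPSEff replicate 2 (0.0982). The LPS/IFNγ effects on Thbd in naïve and efferocytic Mϕ were 2.68 ± 0.57 apart on the log2 scale, which did not pass over all genes (limma, unadjusted p = 0.00151, adjusted p = 1.00; DESeq2, adjusted p = 0.101). In that test limma called 0 of 16309 genes (0.0%), with 311 at an unadjusted p under 0.05, and edgeR and DESeq2 also called 0.

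Procr, the receptor that presents protein C to thrombin and thrombomodulin, rose with LPS/IFNγ in both contexts. It had 244 and 409 normalized counts in Ctrl, 802 and 1049 in Eff, 7477 and 8235 in LPS, with 18269 and 18530 in LPSEff. The 4 groups did not overlap at any step of this order, the only member of which this held. LPS/IFNγ raised it 24.1-fold by the group means in naïve and 19.9-fold in efferocytic Mϕ (log2 changes of 4.63 ± 0.26, adjusted p = 3.39e-05, and 4.32 ± 0.26, adjusted p = 3.56e-05, limma). These calls held when any sample was left out. Efferocytic Mϕ held 2.83 times the Procr of naïve Mϕ without stimulus and 2.34 times with it. The log2 differences of 1.53 ± 0.26 and 1.23 ± 0.26 did not pass in limma with the 4 group means (adjusted p = 0.0824 and 0.111) or edgeR (0.109 and 0.0990). They passed in DESeq2 (8.82e-06 and 0.000303). For Procr, the effect in efferocytic minus that in naïve Mϕ was -0.31 ± 0.37 (limma, adjusted p = 1.00).

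When the effect of efferocytosis was averaged over both stimulation states, Thbd and Procr were called higher, 2 of 9 members beside 1.92% of all genes (1.62% higher). The averaged log2 change was 2.07 ± 0.29 for Thbd (limma, adjusted p = 0.0132) and 1.38 ± 0.19 for Procr (adjusted p = 0.0114). For Thbd it averaged unlike differences, 0.73 ± 0.41 in Eff vs Ctrl (limma, adjusted p = 0.965) and 3.41 ± 0.41 in LPSEff vs LPS. The larger rests on LPS samples with 16 and 9 reads. Leaving out Ctrl replicate 1, Ctrl replicate 2, Eff replicate 2 or LPSEff replicate 1 lost the call on Thbd (adjusted p from 0.0523 to 0.0644). Leaving out Eff replicate 2, LPSEff replicate 1 or LPSEff replicate 2 lost the call on Procr (0.0567 to 0.0602). Thbd and Procr act as partners in protein C activation, yet in LPS vs Ctrl they moved in opposite directions, and the ratio of Thbd to Procr normalized counts went from 0.680 and 0.323 in Ctrl to 0.00277 and 0.00111 in LPS. It was 0.298 and 0.240 in Eff, with 0.0113 and 0.00637 in LPSEff.

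Of the urokinase system, the inhibitor gene Serpinb2 rose with LPS/IFNγ, while the urokinase gene Plau had lower values and the receptor gene Plaur higher ones that did not pass in limma with the 4 group means. Plau had 1110 and 1993 normalized counts in Ctrl, 523 and 735 in LPS, 1741 and 1814 in Eff, with 510 and 1227 in LPSEff. Both stimulated groups lay below their unstimulated group without overlap, but the log2 differences of -1.26 ± 0.42 and -1.17 ± 0.42 did not pass in limma (adjusted p = 0.0656 and 0.0938) or edgeR (0.0509 and 0.111), whereas DESeq2 called both (0.00668 and 0.0368). Limma also called both when the samples were rescaled to equal totals (-1.66 and -1.62, adjusted p = 0.0126 and 0.0149). Efferocytosis gave Plau differences of 0.26 ± 0.42 and 0.35 ± 0.42 (adjusted p = 0.999 and 0.872), with overlapping groups.

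Plaur, the urokinase receptor, was high in every group and highest in LPSEff. It had 2274 and 2886 normalized counts in Ctrl, 5322 and 3401 in LPS, 5145 and 3522 in Eff, with 6418 and 5780 in LPSEff. LPS and Eff overlapped each other, lay above Ctrl and lay below LPSEff. The log2 difference was 0.73 ± 0.28 in LPS vs Ctrl (limma, adjusted p = 0.100) and in Eff vs Ctrl (adjusted p = 0.702), and no comparison passed in limma with the 4 group means. DESeq2 called it in LPS vs Ctrl alone (0.0409). Rescaled to equal totals, its log2 difference was 0.33 in LPS vs Ctrl (limma, adjusted p = 0.447) and 0.07 in LPSEff vs Eff (0.891), against 0.73 and 0.52 before.

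Serpinb2, the inhibitor, had 265 and 156 normalized counts in Ctrl, 4692 and 1765 in LPS, 1236 and 243 in Eff, with 8949 and 4707 in LPSEff. Stimulated samples lay above unstimulated ones, and Eff overlapped with Ctrl. The lower LPSEff sample lay just above the higher LPS sample. By their ratio, the Eff replicates lay furthest apart. LPS/IFNγ raised it by 3.82 ± 0.75 on the log2 scale in naïve (limma, adjusted p = 0.00829) and by 3.56 ± 0.75 in efferocytic Mϕ (adjusted p = 0.0129). The first value was 3.11 without LPS replicate 1 and 4.52 without LPS replicate 2, and the second was 4.73 without Eff replicate 1 and 2.39 without Eff replicate 2. The first call was lost without Ctrl replicate 2 (0.0600) and the second without Eff replicate 2 (0.0512) or LPSEff replicate 1 (0.0834). The differences with efferocytosis, 1.43 ± 0.75 and 1.17 ± 0.75, did not pass in limma with the 4 group means (adjusted p of 0.684 or more). With the replicate number as a block they passed (limma, adjusted p = 0.0298 and 0.0395). The ratio of Plau to Serpinb2 normalized counts was 4.19 and 12.8 in Ctrl, 1.41 and 7.47 in Eff, 0.111 and 0.417 in LPS, with 0.0570 and 0.261 in LPSEff, so that every stimulated sample lay below every unstimulated one.

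Levels of different genes were compared per length, as the group mean of normalized counts per kb of exon. In Ctrl, F7 (698 ± 90.3, SD, n = 2), Plaur (645 ± 108) and Plau (604 ± 243) were the highest members and did not differ beyond their spread. Per kb of the longest transcript Plaur came first instead (1284 ± 215), since the lengths of its annotated exons and its longest transcript differ most among these 3. In LPS, Procr was the highest member at 3845 ± 262 per kb of exon, followed by F10 at 1747 ± 392. In LPSEff, Procr reached 9006 ± 90.3 and was followed by Serpinb2 (2405 ± 1056) and F10 (2207 ± 594), which did not differ beyond their spread. F3 stayed modest even at its highest, at 119 ± 41.7 per kb in LPSEff, and Thbd and F13a1 were the lowest there, at 22.2 ± 8.57 and 17.3 ± 4.16. Per kb of the longest transcript, Procr stayed first in LPS and LPSEff, but Plaur came ahead of F10. Their values were 2171 ± 676 and 1771 ± 398 in LPS, within their spread, and 3036 ± 225 and 2238 ± 603 in LPSEff.

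**Figure D3:**
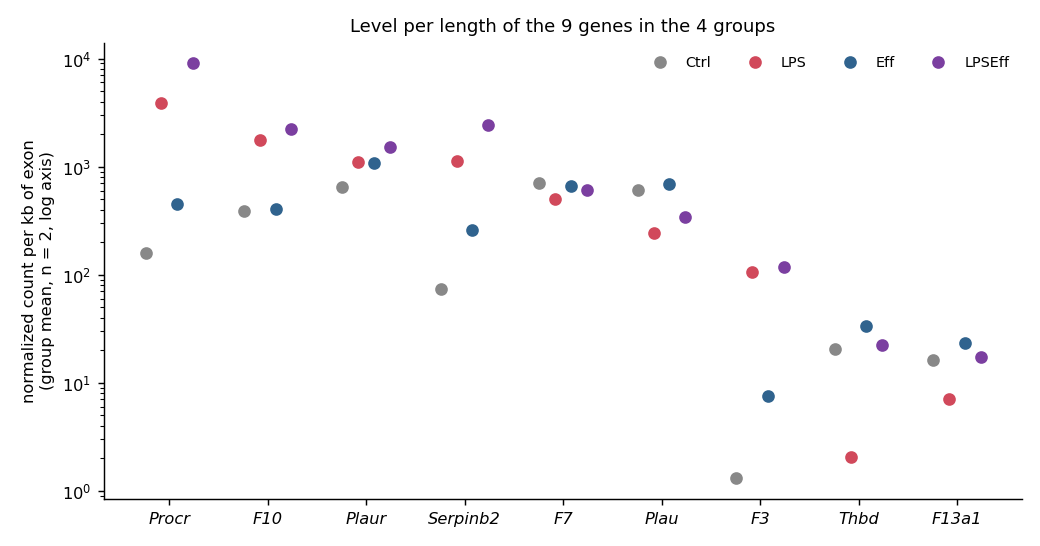
Group means of normalized counts per kb of exon (vertical axis, log scale, n = 2 per group) of the 9 genes (horizontal axis), with a colour for each of the 4 groups. Procr went from 160 in Ctrl to 9006 in LPSEff and F3 from 1.31 to 119, while F7 kept between 506 and 698 in all groups.

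For the rest of the coagulation and fibrinolysis system, 54 further genes were followed in the table, of which 31 passed the filter on low values. LPS/IFNγ raised 6 of the 31 and lowered 1 in naïve Mϕ (limma, beside 24.0% of all genes called in either direction), with a median log2 change of 0.05, and also raised 6 and lowered 1 in efferocytic Mϕ (beside 19.7%), with a median of 0.07. The share of the list that was called was near that of all genes. The 6 raised genes were Plat, Tgm2, Thbs1, Xkr8, Furin and Serpine2 in both cases. Limma called Vkorc1l1 lower in naïve Mϕ and F2rl2 lower in efferocytic Mϕ, and a difference between both contexts did not pass for either gene (adjusted p = 1.00). Efferocytosis gave no call in either context (limma, 0 of 31, with 3 at an unadjusted p under 0.05 in each, and 0 by edgeR and DESeq2), and averaged over both contexts it gave 1, Thbs1.

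**Figure D4:**
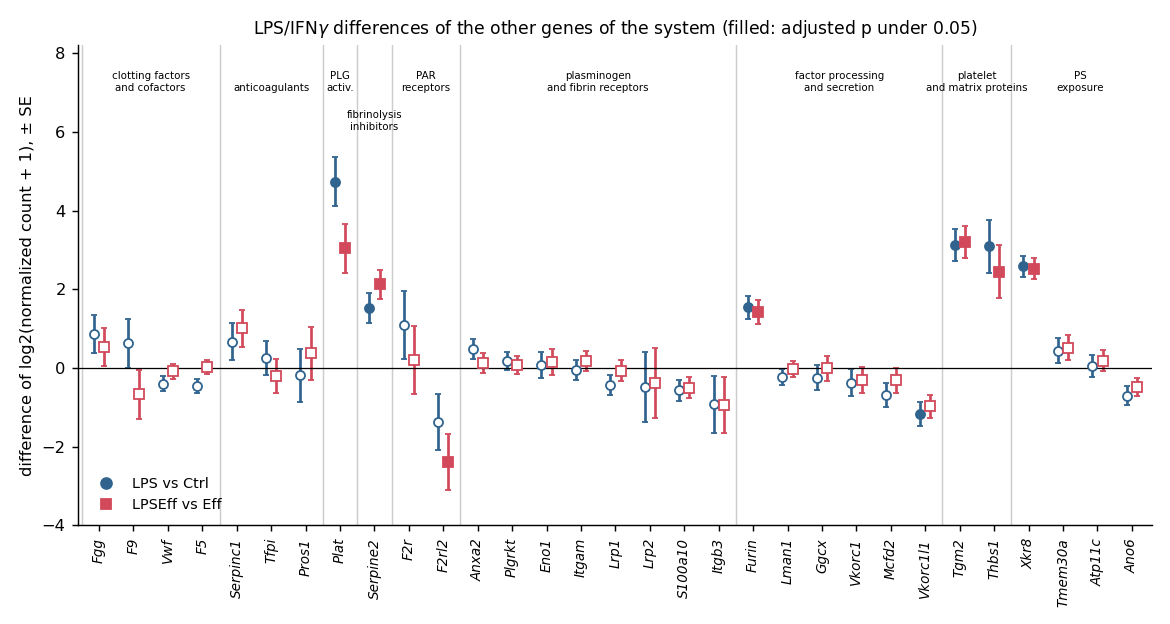
Differences of log2(normalized count + 1) with LPS/IFNγ (vertical axis, bars of 1 standard error from limma) for the 31 further genes of the system (horizontal axis), in naïve and efferocytic Mϕ. Plat, at 4.73 and 3.04, and Tgm2, at 3.12 and 3.21, had the largest rises by the mean of both, and most of the other genes lay near 0.

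Among genes of fibrinolysis, Plat, the tissue-type plasminogen activator, had 1.90 and 8.68 normalized counts in Ctrl, 118 and 167 in LPS, 11.4 and 29.6 in Eff, with 160 and 159 in LPSEff. It rose with LPS/IFNγ by 4.73 ± 0.62 in naïve (limma, adjusted p = 0.00129) and 3.04 ± 0.62 in efferocytic Mϕ (adjusted p = 0.0110), the latter lost without Eff replicate 1, LPSEff replicate 1 or LPSEff replicate 2 (0.0533 to 0.0705). The first value was 3.87 without Ctrl replicate 1 and 5.60 without Ctrl replicate 2, and the second was 2.39 without Eff replicate 1 and 3.69 without Eff replicate 2. Serpine2 (protease nexin 1, an inhibitor of thrombin and urokinase) rose by 1.52 ± 0.37 (adjusted p = 0.0212, lost without Ctrl replicate 1 at 0.129 or LPS replicate 2 at 0.104) and 2.12 ± 0.37 (0.00599). Plg, which encodes plasminogen itself, had at most 7.01 normalized counts in any sample.

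Tgm2, a transglutaminase that like factor XIII crosslinks proteins, rose by 3.12 ± 0.41 in naïve (limma, adjusted p = 0.00129) and 3.21 ± 0.41 in efferocytic Mϕ (adjusted p = 0.00126). It had 977 and 647 normalized counts in Ctrl, 9744 and 4901 in LPS, 1576 and 926 in Eff, with 13848 and 9059 in LPSEff. Xkr8, a scramblase that exposes phosphatidylserine, the membrane surface on which clotting factors assemble, rose by 2.58 ± 0.26 (adjusted p = 0.000403) and 2.52 ± 0.26 (adjusted p = 0.000460). Furin, a protease that processes precursor proteins, rose by 1.54 ± 0.30 (adjusted p = 0.00745, lost without Ctrl replicate 2 at 0.0569) and 1.42 ± 0.30 (0.0120, lost without Eff replicate 2 at 0.0759 or LPSEff replicate 1 at 0.0754). Rescaled to equal totals, Furin was called in naïve Mϕ (1.14, adjusted p = 0.0281) and not in efferocytic Mϕ (0.97, adjusted p = 0.0505). Vkorc1l1, a vitamin K epoxide reductase, fell by 1.17 ± 0.30 on the log2 scale in naïve Mϕ (0.0232), a call lost without Ctrl replicate 1, Ctrl replicate 2 or LPS replicate 1 (0.0635 to 0.133). In efferocytic Mϕ its change of -0.97 ± 0.30 did not pass in limma (adjusted p = 0.0531) and passed in edgeR (0.0342), in DESeq2 (0.0280) and in limma at equal totals (0.00443). F2rl2, a protease-activated receptor that thrombin cleaves, had 164 and 194 normalized counts in Eff, with 19.8 and 55.8 in LPSEff. It fell by 2.38 ± 0.71 (0.0494), and the call was lost without Eff replicate 1, Eff replicate 2 or LPSEff replicate 1 (0.139 to 0.251). The change was -1.66 without LPSEff replicate 1 and -3.11 without LPSEff replicate 2. In naïve Mϕ it was -1.37 ± 0.71 (adjusted p = 0.212).

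Thbs1, a matrix and platelet glycoprotein, rose with LPS/IFNγ by 3.09 ± 0.67 in naïve (limma, adjusted p = 0.0125) and 2.45 ± 0.67 in efferocytic Mϕ (adjusted p = 0.0365). It had 1291 and 939 normalized counts in Ctrl, 20342 and 4334 in LPS, 10665 and 4853 in Eff, with 49191 and 31438 in LPSEff. Its averaged change with efferocytosis was 2.39 ± 0.47 (adjusted p = 0.0494). In naïve Mϕ the value was 1.98 without LPS replicate 1 and 4.21 without LPS replicate 2, and the call was lost without Ctrl replicate 1 or Ctrl replicate 2 (0.0516 and 0.0785). In efferocytic Mϕ it was lost without any sample of Ctrl, Eff or LPSEff (0.0548 to 0.188), and the averaged call was lost without any of those same samples (0.0823 to 0.177). The call in efferocytic Mϕ and the averaged call were also lost in edgeR (0.0520 and 0.0847) and in limma at equal totals (2.00, adjusted p = 0.0660, and 2.37, adjusted p = 0.0677).

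Direct partners of the members that did not pass in any comparison in limma with the 4 group means included F5, the cofactor of factor X, with 291 to 518 normalized counts over the 8 samples, Pros1, the cofactor of activated protein C, with 104 to 411, and Tfpi, the inhibitor of the tissue factor complex, with 48.3 to 111. The log2 differences of F5 ranged from -0.46 ± 0.17 (LPS vs Ctrl, limma, adjusted p = 0.0924) to 0.67 ± 0.17 (LPSEff vs LPS, adjusted p = 0.184). Rescaled to equal totals, F5 was called lower in LPS vs Ctrl (limma, -0.86, adjusted p = 0.00883). Those of Tfpi ranged from -0.41 ± 0.43 (adjusted p = 0.845) to 0.26 ± 0.43 (adjusted p = 0.724) in the same 4 comparisons. The thrombin receptor gene F2r had 1.90 to 36.7 normalized counts and F2rl1 at most 16.2. Proc, the gene of protein C itself, had at most 2.59.

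All 10 Mϕ markers were present in all groups, with a summed level from 108856 to 164148 normalized counts per sample. Fibroblast markers were higher with co-culture and, by less, with LPS/IFNγ. Their summed level was 208 to 420 in Ctrl, 974 to 1039 in LPS, 1797 to 3929 in Eff and 5461 to 5599.7 in LPSEff. Of 16 tested, 12 passed the averaged efferocytosis test (all higher, limma), beside 1.62% of all genes called higher. With LPS/IFNγ, limma called 3 of the 16 higher in LPS vs Ctrl and 1 in LPSEff vs Eff, beside 12.4% and 10.7% of all genes. The median log2 changes of the 16 were 1.00 and 1.02. Lum, Dcn, Loxl1, Twist1 and Prrx1 had at most 3 reads in each Ctrl sample, and Lum also in each LPS and LPSEff sample. In LPSEff vs LPS, 14 of the 16 lay higher without overlap and 1 lower, beside 36.3% of all genes without overlap. Summed megakaryocyte and platelet markers were also higher with co-culture. They were at 184.5 to 194 in Ctrl, 263 to 269 in LPS, 552 to 1679 in Eff and 838 to 1731 in LPSEff. Gp9 was at 0 in Ctrl and at no more than 3 reads in each Eff and LPSEff sample. Of the 5 markers, 3 were tested, and limma called 0 in Eff vs Ctrl or LPSEff vs LPS (0.251% and 0.773% of all genes). The averaged efferocytosis test called 2 higher, beside 1.62% of all genes. In LPSEff vs LPS, 2 of the 3 lay higher without overlap and 1 lower. The fibroblast and megakaryocyte sums, and the endothelial sum given below, stand beside the higher Thbd, Procr and Thbs1 in efferocytic Mϕ. The part of these markers in those differences was not tested.

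With LPS/IFNγ, endothelial markers were at 630 to 700 in Ctrl, 1372 to 3386 in LPS, 1034 to 1448 in Eff and 2344 to 2638 in LPSEff, with Tek at no more than 3 reads in each Ctrl and LPS sample. Summed dendritic cell markers were at 2165 to 2922 in Ctrl, 8513 to 17213 in LPS, 1368 to 1768 in Eff and 6886 to 6905 in LPSEff. Neutrophil markers were at 694 to 1007, 1743 to 2072, 1110 to 1465 and 1791 to 2500 in the same order. Of the 7 dendritic cell markers, 5 were tested, and limma called 2 higher in LPS vs Ctrl and 1 in LPSEff vs Eff. For the 7 neutrophil markers these counts were 5, 3 and 1, beside 12.4% and 10.7% of all genes. Cd209a had at most 3 reads in each LPS and Eff sample and 0 in LPSEff. Clec9a had at most 3 in each Ctrl, Eff and LPSEff sample. The part of these markers, and of the fibroblast markers given above, in the rise of F3, F10, Procr and Serpinb2 was not tested. Hepatocyte markers, of interest because the liver makes most circulating factor VII and factor X, summed to at most 5.50 normalized counts in any sample. In bulk samples such as these, fewer cells of a type and less RNA per cell cannot be told apart.

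**Figure D5:**
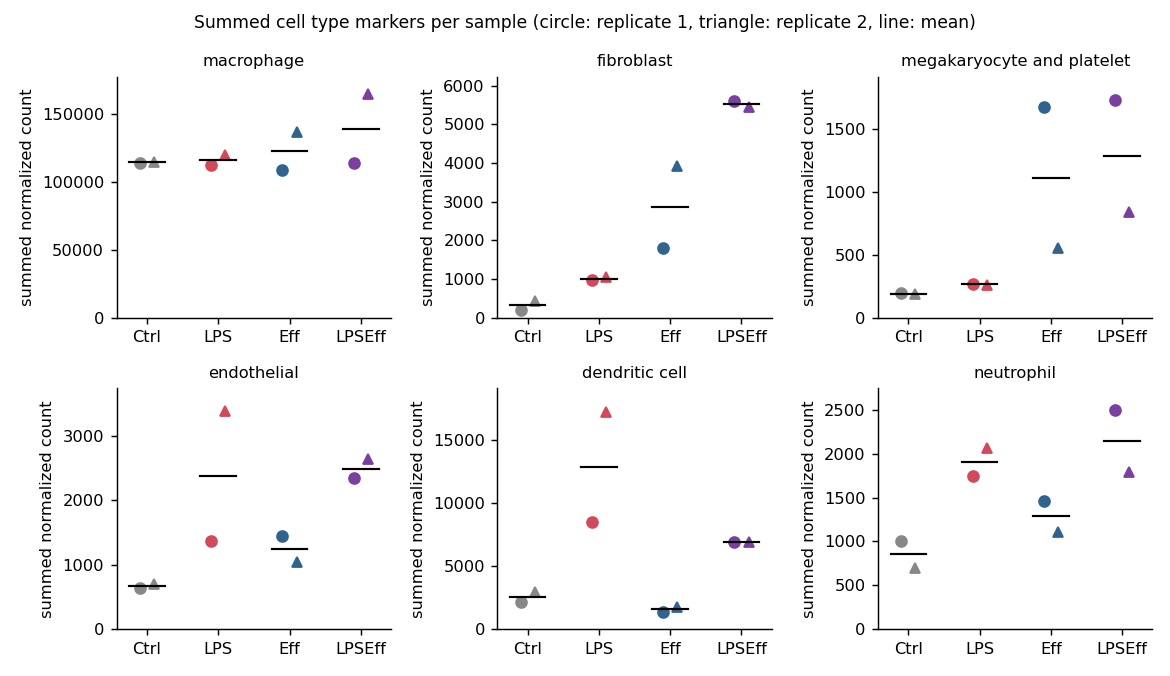
Summed normalized counts (vertical axes, starting at 0) of marker lists for 6 cell types in the 4 groups (horizontal axes), with a circle for replicate 1, a triangle for replicate 2 and a line for the mean. Fibroblast markers went from at most 420 in Ctrl to at least 5461 in LPSEff, and Mϕ markers were at 108856 or more in every sample.

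Over the 8 samples, the genes whose log2 normalized counts followed a member most closely were sought among the 10868 genes that averaged 50 or more normalized counts. For Procr these were Plpp3 (r = 0.997) and Il36g (0.995), and for F10 they were Mir147 (0.997) and Azi2 (0.997). For Serpinb2 they were Ccl2 (0.992) and Tmsb15a (0.991), and for F3 they were Sin3b (0.987) and Plat (0.986). For Thbd they were Cbx6 (0.978) and Spring1 (0.972), and for Plau Eif2b1 (0.990) and Prmt1 (0.989). F7 was closest to Kctd7 (0.976) and Eri3 (0.975), F13a1 to Rps19bp1 (0.985) and Prune1 (0.979), and Plaur to Gm54730 (0.985) and Vaultrc-ps1 (0.982). Many genes followed F10 and Procr this closely, with 525 and 281 genes above r = 0.95, whereas 9 did so for Plaur, 10 for F13a1, 11 for F7 and 21 for Thbd. The points share 4 groups of 2 samples, and the coefficients take in differences between groups as well as those between the 2 samples of a group.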

How the data were processed

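Total RNA-seq of 8 BMDM samples in 4 groups of 2 was analysed, with groups taken from the labels. According to the methods and the submitters' processing notes, rRNA was depleted, cutadapt trimmed the reads, bowtie2 took out remaining rRNA reads, STAR aligned the others to mm39, and htseq-count (default mode) assigned them to genes. Versions and the annotation are not given in the sources used here. The value the authors deposited for each gene is a signal in the form of a normalized count (reads over 1 DESeq2 size factor for the sample). Divided by the sample's smallest nonzero value, 100% came out whole (tolerance 0.02), which gave the recovered reads, 3481288 to 12020918 per sample. Read numbers cover counting error only.

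The 9 members, the wider list of 55 genes (54 found; 1 further gene is not reported here) and the marker lists were chosen with earlier results of these data known. GENCODE annotation of GRCm39 named and placed the genes (54749 of 55359 identifiers matched). limma (3.58.1, R 4.3.3) with a trend used log2(normalized count + 1) and 4 group means. It took in 16309 genes, those that averaged 10 or more. Calls were two-sided at a Benjamini-Hochberg adjusted p under 0.05 over all tested genes. Fold changes of low genes on this scale depend on the pseudocount and can lie above or below those of other tools. For F3 in LPS vs Ctrl, 6.70 lay above the 5.99 of DESeq2 and the 5.86 of edgeR. Tested were the effect of LPS/IFNγ (LPS vs Ctrl in naïve, LPSEff vs Eff in efferocytic Mϕ), that of efferocytosis (Eff vs Ctrl and LPSEff vs LPS), the interaction of both, and efferocytosis averaged over stimulation. The methods speak in general of independent experiments, and neither they nor the labels say what the replicates of these groups are, so that p-values measure the spread between these samples, which may be technical. The smallest p of an exact permutation test with 2 samples a group is 0.333.

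Named were all members, wider-list genes called in any contrast, direct partners of members, and the 2 genes most correlated with each member. Alternatives were pseudocounts of 0.5 and 5, minimum means of 50 or just above 0, fits of the compared groups alone, the replicate number as a block, equal totals, edgeR (4.0.16) with TMM and DESeq2 (1.42.0) on recovered reads, and each sample left out in turn. The tests were checked on simulated counts, with the same setting of spread for every gene and no deviation shared by same-numbered replicates. That check therefore does not cover the spread between the samples studied here.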

Additional observations from a re-analysis of the deposited data

How the results depend on the processing

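No named gene reversed its direction in a called result under any alternative, and the interaction test gave 0 calls in each of them. Rescaling the samples to equal totals brought the median log2 change of all genes to -0.40 in LPS vs Ctrl and -0.44 in LPSEff vs Eff. It then called 8 members in LPS vs Ctrl, adding F7 (-0.86), F13a1 (-1.56) and Plau (-1.66) below Ctrl, 14 genes of the wider list there, 5578 genes of all in LPSEff vs Eff, and 0 of the wider list for averaged efferocytosis. Same-numbered replicates deviated from their group means together (r from 0.404 to 0.595 over 6 pairs of groups) but share only a number in the labels. With the replicate block, the calls in LPS vs Ctrl were 9 members, 16 of the wider list and 6717 of all genes (5, 7 and 3910 without it), and those in LPSEff vs Eff were 5, 11 and 6033 (4, 7 and 3213). They were 2, 3 and 436 in Eff vs Ctrl (0, 0 and 41), 4, 3 and 1137 in LPSEff vs LPS (1, 0 and 126) and 5, 7 and 1845 for averaged efferocytosis (2, 1 and 313). The members this block added in limma were F7 (adjusted p = 0.0134), F13a1 (0.00214), Plau (0.00131) and Plaur (0.0184) in LPS vs Ctrl, and Plau (0.00241) in LPSEff vs Eff. It added Procr (0.00120) and Serpinb2 (0.0298) in Eff vs Ctrl, F13a1 (0.00790), Procr (0.00277) and Serpinb2 (0.0395) in LPSEff vs LPS, and F13a1 (0.00412), Plaur (0.0248) and Serpinb2 (0.00309) for averaged efferocytosis. F5 passed with it in LPS vs Ctrl (0.0212), LPSEff vs LPS (0.0188) and averaged efferocytosis (0.0210). DESeq2 called 1 member (Procr) and 204 genes of all in Eff vs Ctrl, 2 members (Procr and Thbd) and 368 genes in LPSEff vs LPS, and 2 wider-list genes (Thbs1 and Vwf) and 644 genes for averaged efferocytosis. edgeR called 14 genes in Eff vs Ctrl, and 0 of the wider list for averaged efferocytosis, as did a pseudocount of 0.5 and a minimum mean of 50. A minimum mean above 0 gave 1 member and 79 genes in Eff vs Ctrl. A minimum mean of 50 gave 20 genes there and 208 for averaged efferocytosis. With only the groups compared in the fit, 9 genes were called in Eff vs Ctrl, and 0 members and 66 genes in LPSEff vs LPS.

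Leaving out each sample in turn gave 5 to 6 members, 4 to 8 wider-list genes and 2076 to 3562 genes in LPS vs Ctrl, and 2 to 4, 3 to 8 and 1567 to 3407 in LPSEff vs Eff. It gave 0 to 45 genes in Eff vs Ctrl, 0 to 1 members and 0 to 84 genes in LPSEff vs LPS, and 0 to 2 members, 0 to 1 wider-list genes and 83 to 421 genes for averaged efferocytosis. The cause of these changes was not tested beyond the fewer samples in each fit. Thbd in LPS (16 and 9 reads) and F3 in Ctrl (0 and 14 reads) are limited by depth, so that the size of their changes is less certain than that of Procr or F10.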
